A study of Mus musculus with 24 samples.

Results

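Ptch1 and the intergenic elements upstream of it were followed in 7 deposited lists of ChIP-seq peaks. Members were chosen by position, as every peak on chromosome 13 between 63400000 and 64150000 of the mm10 build. The window was set with earlier results of these data known. This window held 274 of the 368246 peaks on the main chromosomes in all lists. It held 48 H3K27ac peaks of WT limb buds, 15 H3K27ac peaks of Shh-/- limb buds, 18 H3K4me2 peaks of WT limb buds, 16 H3K4me2 peaks of Shh-/- limb buds and 11 H3K27me3 peaks of Shh-/- limb buds. In NIH3T3 cells it held 151 H3K27ac peaks with purmorphamine and 15 with DMSO. In the GENCODE vM21 annotation Ptch1 (ENSMUSG00000021466) lies on the minus strand from 63508328 to 63573598, so positions with higher coordinates are upstream of it. The distal cluster, taken as the 100 kb from 63900000 to 64000000, was intergenic but for the last bases of Ercc6l2 and the processed pseudogene Gm7695.

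The study had 24 libraries in 14 groups, 14 of them immunoprecipitations and 10 of them inputs. The limb samples were forelimb buds of mouse embryos at E10.5 with 32 to 35 somites, on a Swiss Webster background, with 400000 cells per immunoprecipitation. They were either Shh-/-, without functional Sonic hedgehog, or labelled WT, and by the study's methods the WT group joined wild-type and heterozygous littermates and buds were pooled from several embryos. Whole forelimb buds were used, so fewer cells carrying a mark and less of the mark per cell cannot be told apart. The cell samples were NIH3T3, an established mouse fibroblast line that responds to Hedgehog, with 1000000 cells per immunoprecipitation. These cells were kept for 48 h in 0.5% calf serum with either 400 nM purmorphamine, a small molecule that activates Smo, or its solvent DMSO, and the labels list LIF for both groups. Chromatin of limb buds and NIH3T3 cells was precipitated with different H3K27ac antibodies, so their lists are set side by side only. H3K27me3 in WT limb buds was not analysed here. Each immunoprecipitated group had 2 replicate libraries, but the peak lists used here give 1 value per group and none per replicate. No test between conditions was therefore made from them, and the values below carry no replicate error.

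The whole lists ranged from 20830 to 90989 peaks, and the highest false discovery rate (FDR) in a list ranged from 0.000805 with purmorphamine to 0.255 for H3K27me3. The lists do not give the number of reads behind them. Promoters of limb mesenchyme markers were acetylated in 6 of 6 cases in both limb lists, those of hindlimb, ectoderm, blood and neural markers in no case in either limb list, and those of endothelium markers in 1 of 4 (Cdh5) in WT and 0 of 4 in Shh-/- limb buds. Muscle precursor promoters were acetylated in 0 of 3 cases in WT and in 2 of 3 cases (Pax3 and Lbx1) in Shh-/- limb buds. The part of such cells in the results was not tested. Fibroblast marker promoters were acetylated in 5 of 5 cases in both NIH3T3 lists, and in 3 of 5 cases in both limb lists. In each NIH3T3 list 3 of 6 limb mesenchyme and 1 of 5 ectoderm marker promoters were acetylated, so these markers separate the sources only in part. No H3K27ac peak lay within 20 kb of Shh itself in either limb list, so acetylation there does not check the genotype.

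Ptch1 encodes the receptor of Hedgehog ligands, a membrane protein that holds Smo inactive until a ligand binds it. GLI transcription factors carry the signal into the nucleus, where they are activators under signalling and repressors without it, and Ptch1 is one of their best known direct targets in limb and fibroblasts alike, which makes it a negative feedback of the pathway. H3K27ac marks active promoters and enhancers, H3K4me2 marks promoters and enhancers whether active or not, and H3K27me3 is laid down by Polycomb complexes at repressed genes.

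Sequences are shown first for the places on which the lists turned. They were read from the GRCm38 assembly, which mm10 names, and the promoter from RefSeq on the same assembly. The first is the 250 bases before the principal Ptch1 start, chr13:63565736-63565985, on the minus strand. The second lies within the strongest distal limb element, chr13:63951350-63951649, and ends with the H3K4me2 peak called there in WT limb buds. The others are exact matches to GACCACCCA, the consensus bound by GLI proteins, that lay in a limb peak or within 150 bp of a WT H3K27ac peak. In the order printed these windows are chr13:63566395-63566483, chr13:63569245-63569333, chr13:63573455-63573483, chr13:63719697-63719785, chr13:63901460-63901548, chr13:64003271-64003359 and chr13:64107458-64107546. By annotation the first pair lies in a Ptch1 intron, the next in the Ptch1 UTR, that at 146 kb in an intron of the lincRNA 1700024I08Rik, those at 328 and 430 kb between genes and the last in an intron of Slc35d2. All but the promoter are given on the plus strand. Capitals mark an exact match to the consensus on either strand, or in the distal element its only match with 1 mismatch (GACCACACA). Distances are from the most upstream annotated Ptch1 start at 63573598, with upstream positive, and near an annotated UTR only 10 bases on either side are given.
Ptch1 promoter: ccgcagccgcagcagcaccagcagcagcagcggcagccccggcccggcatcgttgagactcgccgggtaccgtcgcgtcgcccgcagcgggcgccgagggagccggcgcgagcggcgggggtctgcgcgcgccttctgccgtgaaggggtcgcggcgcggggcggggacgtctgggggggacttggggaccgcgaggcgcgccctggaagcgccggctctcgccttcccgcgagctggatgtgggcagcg
Distal element at 378 kb: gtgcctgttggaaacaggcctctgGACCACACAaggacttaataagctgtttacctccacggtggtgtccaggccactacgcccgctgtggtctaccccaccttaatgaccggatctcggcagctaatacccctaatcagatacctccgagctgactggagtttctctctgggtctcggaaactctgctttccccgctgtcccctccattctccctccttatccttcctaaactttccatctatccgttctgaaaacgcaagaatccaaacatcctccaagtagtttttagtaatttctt
Match at -7.16 kb: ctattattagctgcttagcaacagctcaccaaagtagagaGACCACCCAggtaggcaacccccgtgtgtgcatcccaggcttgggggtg
Match at -4.31 kb: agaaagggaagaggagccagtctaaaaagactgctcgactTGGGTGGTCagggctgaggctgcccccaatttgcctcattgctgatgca
Match at -0.133 kb: gccctcggcgTGGGTGGTCtgccgcgcca
Match at 146 kb: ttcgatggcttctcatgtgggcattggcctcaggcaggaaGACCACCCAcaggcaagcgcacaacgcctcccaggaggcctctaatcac
Match at 328 kb: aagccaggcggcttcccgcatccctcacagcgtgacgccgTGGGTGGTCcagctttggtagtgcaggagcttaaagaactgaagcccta
Match at 430 kb: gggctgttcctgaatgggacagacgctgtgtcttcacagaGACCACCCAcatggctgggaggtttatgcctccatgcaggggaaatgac
Match at 534 kb: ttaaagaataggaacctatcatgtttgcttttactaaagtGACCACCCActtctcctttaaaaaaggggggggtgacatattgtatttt

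The Ptch1 promoter sequence was 76.3% G and C over the 300 bases that RefSeq gives and held 47 CpG dinucleotides, against medians of 52.7% and 7 over 32851 RefSeq promoters. It held no exact GLI consensus on either strand, and 83 of all promoters (0.253%) held one.

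The Ptch1 promoter was acetylated in both genotypes, but without Shh the acetylated stretch was shorter and stopped short of the principal start. In WT limb buds a single H3K27ac peak of 3650 bp ran from 63562700 to 63566349 across the principal Ptch1 start at 63565735. Its highest log2 ratio of ChIP to input was 5.64 and it was ranked 1438 of 49679 peaks. In Shh-/- limb buds there were instead a peak of 1250 bp from 63563000 to 63564249, with a log2 ratio of 4.67 and rank 3499 of 43916, and one of 650 bp from 63564350 to 63564999, with a log2 ratio of 3.56. Each covered the start of another annotated transcript, at 63563815 and 63564535, and neither reached 63565735.

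Upstream of that start, up to the most upstream annotated start, most WT peaks overlapped no Shh-/- peak. Over the whole list 48.5% of WT peaks overlapped none, and within 20 kb of Ptch1 6 of 12 did not. The next WT peak, from 63566500 to 63567949, had a log2 ratio of 4.35 against 3.04 for the 300 bp peak that overlapped it in Shh-/- limb buds. The 4 WT peaks beyond it, at -5.16 kb, -3.84 kb, -0.601 kb and 0.094 kb, overlapped no Shh-/- peak. Their log2 ratios were 4.66, 2.99, 4.20 and 3.27, and the last of them spanned the most upstream start. They were 950, 200, 950 and 600 bp wide. The first of them began at 63568100, just beyond the end of the 300 bp Shh-/- peak at 63568049. It would count as shared if a gap of up to 500 bp were allowed. With peaks within 1 kb merged, it and the peak at -3.84 kb would join the shared stretch over the promoter.

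Further inside the Ptch1 gene body 2 of 5 WT peaks had no Shh-/- partner, a share near the 48.5% of the whole list. At -48.6 kb, over exons and introns, a WT peak of 1850 bp with a log2 ratio of 4.08 met a Shh-/- peak of 200 bp with 2.56, and this difference of 1.52 was the largest among the 12 overlapping H3K27ac pairs of the window. At -45.3 kb, in an intron, a WT peak of 1100 bp with a log2 ratio of 4.00 met a Shh-/- peak of 450 bp with 3.57. Around -32 kb each genotype had a pair of narrow peaks, of which 1 overlapped. A WT peak of 200 bp at -30.3 kb (log2 ratio 3.26) and a Shh-/- peak of 150 bp at -29.2 kb (2.85) lay near each other without overlapping. These narrow sites gave both of the Shh-/- peaks of the window that overlapped no WT peak.

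**Figure D1:**
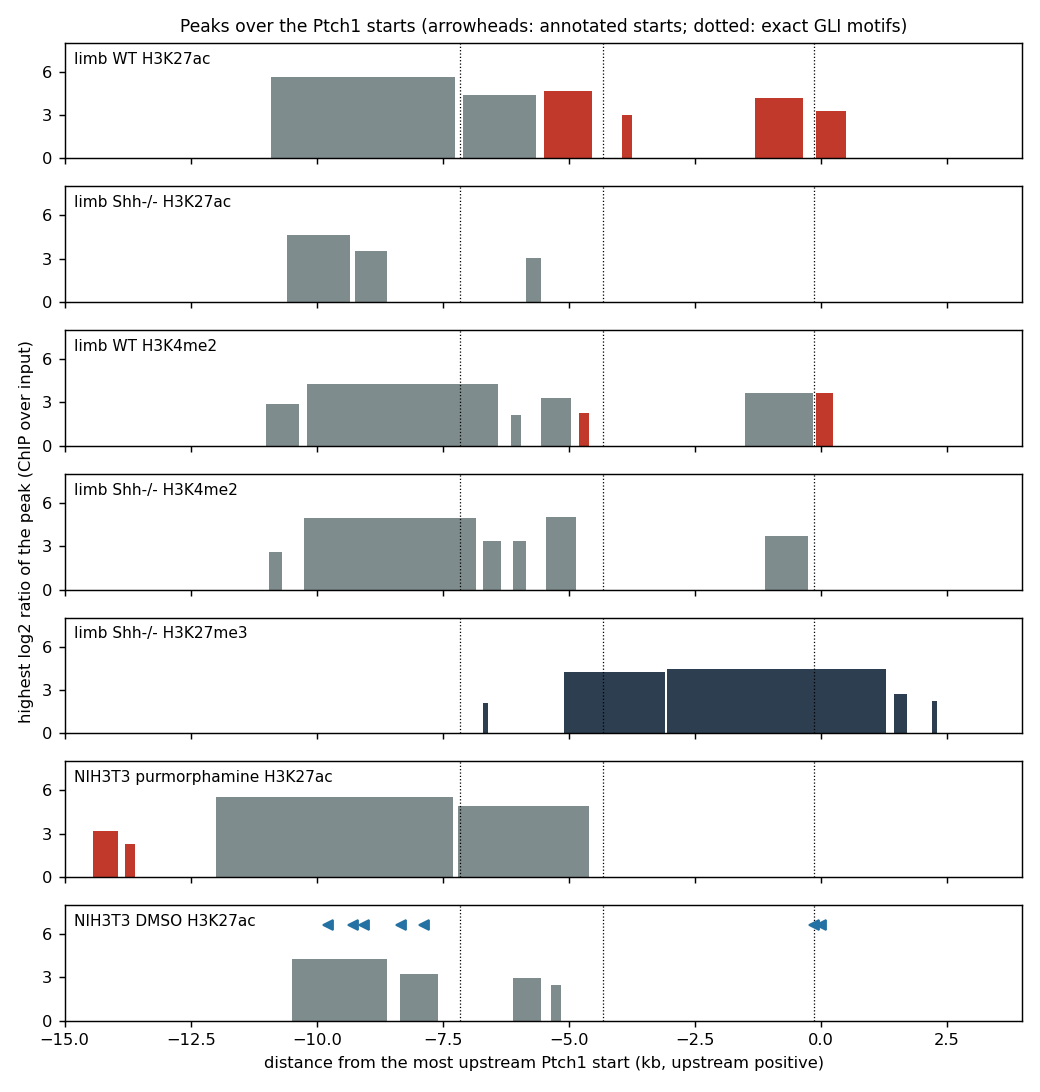
Highest log2 ratio of ChIP to input (vertical axis) of each peak over the Ptch1 starts in the 7 lists, against distance from the most upstream Ptch1 start in kb, upstream positive. Bar width is peak width, grey bars overlap a peak of the paired list, red bars overlap none and dark bars have no paired list; the 4 red WT H3K27ac bars overlap the Shh-/- H3K27me3 bars of 4.21 and 4.42.

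Over the 12 overlapping pairs of the window the WT log2 ratio exceeded the Shh-/- one by a median of 0.77, against 0.14 over all 25606 pairs of the 2 lists. The difference was at least 1 in 4 of 12 pairs, and 12.5% of all pairs passed that margin. Besides the pair at -48.6 kb and the one at 63566500 these were 2 pairs inside Fancc, a DNA repair gene next to Ptch1, with 1.05 and 1.17. The pair over the Ptch1 promoter differed by 0.97. Each ratio was taken against the input of its own genotype, and the lists give no replicate error for it.

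The length covered by peaks gave the same order. Over Ptch1 and 20 kb on either side, WT H3K27ac peaks covered 12850 bp (12.2%) and Shh-/- peaks 4000 bp (3.80%), a 3.21-fold difference. Of 11990 protein-coding genes with at least 500 bp covered in either list, 15.1% had at least 2-fold more in WT, and 2.23% had at least 2-fold more in Shh-/- limb buds. Over the whole window the lengths were 24850 bp and 6300 bp, a 3.94-fold difference. Among 1920 stretches of the same length along the genome with at least 10 peaks in either list, 7.66% had at least 2-fold more in WT, 15 had a larger fold than the window and the median was 1.21-fold. The stretches of 750 kb just below and just above the window stood at 1.34-fold and 1.60-fold.

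The distal intergenic interval held acetylated elements in WT limb buds and none in Shh-/- limb buds. Between the end of Ercc6l2 and Hsd17b3, an interval of 158 kb, the WT list had 15 H3K27ac peaks covering 6850 bp, and the Shh-/- list had 0. Over the whole list 48.5% of WT peaks overlapped no Shh-/- peak. This interval was added after the data were examined. All 15 were intergenic. Ercc6l2 encodes a DNA repair helicase and Hsd17b3 a steroid dehydrogenase of the testis.

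The strongest distal element lay 378 kb upstream, where a WT H3K27ac peak of 1700 bp ran from 63950350 to 63952049 with a log2 ratio of 4.53 and rank 5632 of 49679. A second peak of 350 bp followed it at 379 kb with a log2 ratio of 3.37. At 345 kb a WT peak of 450 bp had a log2 ratio of 4.13, and a peak of 200 bp beside it had 2.94. At 395 to 396 kb 3 peaks of 200, 400 and 700 bp had log2 ratios of 2.73, 3.68 and 3.86. At 411 and 412 kb there was a pair of 600 and 550 bp with 4.07 and 3.90.

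Further upstream the pair at 429 and 430 kb had log2 ratios of 3.01 and 3.77, and the 4 peaks between 447 and 449 kb had 2.95, 2.51, 3.11 and 3.37. In the 240 kb between Ptch1 and Ercc6l2 the WT list had 12 peaks covering 2600 bp. Of the 12, 10 overlapped no Shh-/- peak, against 48.5% over the whole list. The 12 include the 600 bp peak on the most upstream start, and the other 11 were 100 to 300 bp wide. The 2 shared ones lay just upstream of the lincRNA Gm30709, at 54.0 and 54.4 kb, with log2 ratios of 3.38 and 3.65 in WT against 2.63 and 3.36 in Shh-/- limb buds. A site that is missing from a list may still carry some signal, since the lists keep only peaks with a score of at least 3.00.

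Counted over the window, 36 of 48 WT H3K27ac peaks (75.0%, 95% Wilson interval 61.2 to 85.1) overlapped no Shh-/- peak, against 48.5% over the whole list. In the distal 100 kb it was 9 of 9 (70.1 to 100). The study had already classed a GLI3-bound region of this cluster, over the element at 378 kb, as without H3K27ac in Shh-/- limb buds. That share is therefore not independent of how the cluster was chosen. In the opposite direction 2 of 15 Shh-/- peaks (13.3%, 3.74 to 37.9) overlapped no WT peak, against 38.4% over the whole list. Within 20 kb of Ptch1 the WT share, 6 of 12 (50.0%, 25.4 to 74.6), was near that of the whole list. These intervals cover counting error only, and peaks side by side are not independent. The share within 20 kb of Ptch1 depended on what counted as shared. It was 10 of 12 when at least 50% of a peak had to be covered, 4 of 12 when a gap of up to 500 bp was allowed, and 2 of 7 (28.6%) when peaks within 1 kb were merged.

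**Figure D2:**
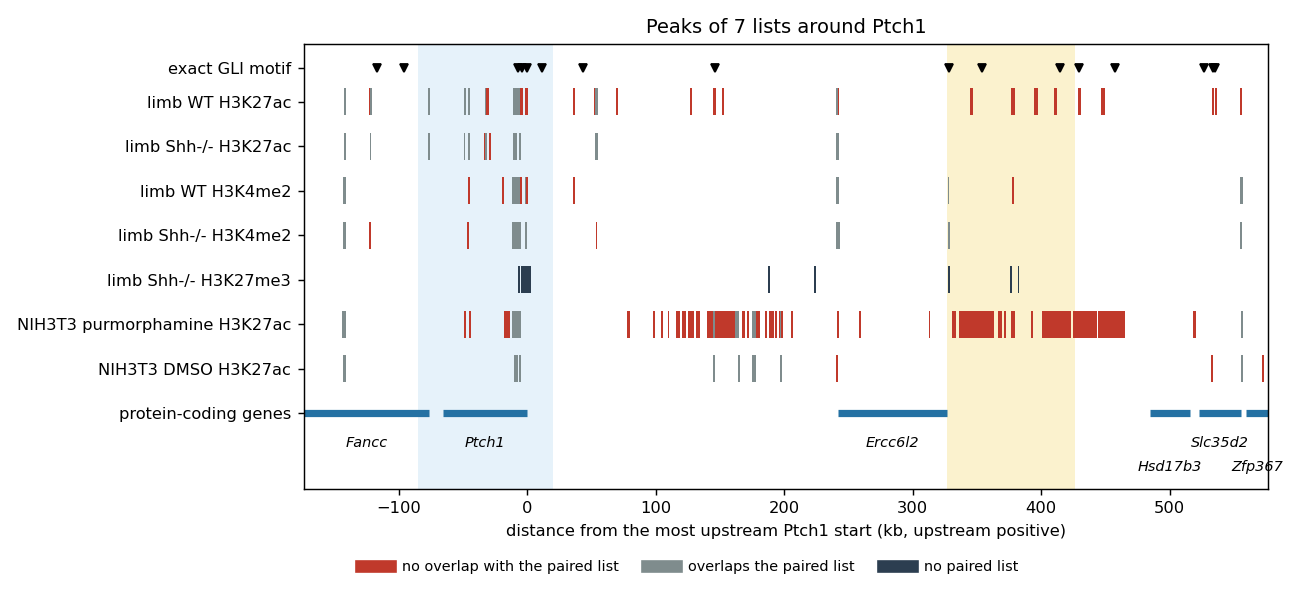
Positions of all 274 peaks of the window in 7 lists, against distance from the most upstream Ptch1 start in kb, with exact GLI motifs as triangles on top and protein-coding genes below. Red peaks overlap no peak of the paired list, grey ones overlap one, dark ones have no paired list, bars are drawn at least 1.5 kb wide, and the blue and yellow bands are Ptch1 with 20 kb on either side and the distal cluster, where 9 WT H3K27ac and 46 purmorphamine peaks stand without a partner.

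H3K4me2 over Ptch1 was present in both genotypes, and at 4 of the 12 overlapping pairs of the window it was the Shh-/- peak that was higher by at least 1 log2 unit. The promoter carried a WT peak of 3800 bp from 63563400 to 63567199 with a log2 ratio of 4.29 and a Shh-/- peak of 3400 bp from 63563350 to 63566749 with 4.93, ranked in the best 6.34% and 0.930% of their lists. Both H3K4me2 peaks covered the principal start, which the Shh-/- H3K27ac peaks did not.

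At -5.2 kb, overlapping the WT-only H3K27ac peak, H3K4me2 had a log2 ratio of 3.29 over 600 bp in WT and of 5.04 over 600 bp in Shh-/- limb buds, where it was ranked 209, in the best 0.543% of the list. This difference of -1.75 (WT minus Shh-/-) was the largest in either direction among the H3K4me2 pairs of the window. The second largest near Ptch1 was at -6.1 kb, with 2.13 in WT against 3.34. The other 2 pairs past 1 log2 unit lay at and just upstream of the start of Slc35d2, a nucleotide sugar transporter gene, and shared 1 Shh-/- peak. At -0.8 kb the ratios were 3.67 and 3.72. Over all 27171 pairs the Shh-/- peak was higher by at least 1 in 10.55% and the WT peak in 4.19%, which was 0 of 12 here.

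By count, 6 of 18 WT H3K4me2 peaks (33.3%, Wilson 16.3 to 56.3) had no Shh-/- partner, against 25.7% over the whole list, and 3 of 16 Shh-/- peaks (18.75%, 6.59 to 43.0) had no WT partner, against 22.5%. Covered length over Ptch1 and 20 kb on either side was 7700 bp (WT) and 5850 bp (Shh-/-), a 1.32-fold difference. At least 2-fold more in WT was found for 3.17% of 15916 measured genes, and at least 2-fold more in Shh-/- for 0.609%. One WT-only H3K4me2 peak of 350 bp lay on the most upstream start, with a log2 ratio of 3.68.

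In the distal interval H3K4me2 was sparse in both genotypes. Of the 15 acetylated WT peaks there, only the element at 378 kb held an H3K4me2 peak in WT, of 200 bp with a log2 ratio of 2.80, and it had no Shh-/- counterpart. A second H3K4me2 site lay at 328 kb, directly behind the end of Ercc6l2, without any H3K27ac peak. It was 350 bp wide in the WT list (log2 ratio 2.85) and 900 bp wide in the Shh-/- list (3.08).

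H3K27me3 in Shh-/- limb buds formed a domain over the upstream Ptch1 start, adjacent to the acetylated promoter. A peak of 2000 bp from 63568500 to 63570499 had a log2 ratio of 4.21 and rank 895, and a peak of 4350 bp from 63570550 to 63574899 had 4.42 and rank 432. Weaker peaks of 250 and 100 bp lay just upstream of it, with ratios of 2.74 and 2.24, and one of 100 bp at -6.69 kb had 2.08 and an FDR of 0.246. The domain began beyond the principal promoter. Of the Shh-/- H3K27ac peaks 0 of 15 in the window overlapped an H3K27me3 peak, a count near the background, since 0.701% did over the whole list.

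The 4 WT-only H3K27ac peaks upstream of the promoter all overlapped this domain, by 2300 bp in sum. They were 4 of 36 WT-only peaks in the window (11.1%), against 0.690% of all 24073 WT-only peaks. A single shared WT peak, at 63566500, overlapped H3K27me3 as well, by 100 bp. By comparison, 4 of 16 Shh-/- H3K4me2 peaks in the window (25%) overlapped H3K27me3, against 11.4% over the whole list. Those at -5.2 and -0.8 kb overlapped the domain. Those at -6.6 and 328 kb met only H3K27me3 peaks with FDRs of 0.246 and 0.196. Without H3K27me3 data from WT limb buds, whether the domain depends on Shh cannot be told from these lists.

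Distal H3K27me3 peaks had lower ratios than the domain over the upstream Ptch1 start. At 376 kb a peak of 650 bp, from 63949450 to 63950099, had a log2 ratio of 2.96, against a median of 2.41 over the whole list. It was ranked 3605, in the best 17.3% of the list, with an FDR of 0. It ended shortly before the WT-acetylated element at 378 kb without overlapping it. The peaks at 328 and 329 kb had ratios of 2.22 and 2.68, and one of 100 bp at 382 kb had 2.31. Their FDRs were 0.196, 0.00458 and 0.0996 in that order. The remaining peaks, at 188 and 224 kb, were 100 bp wide with FDRs of 0.149 and 0.236.

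In NIH3T3 cells the Ptch1 promoter was acetylated with DMSO and carried one of the highest ranked peaks of the list with purmorphamine. The purmorphamine peak, 4700 bp from 63561600 to 63566299, had a log2 ratio of 5.50 and rank 190, in the best 0.216% of the list. With DMSO there were 2 peaks in its place, of 1900 and 750 bp, with log2 ratios of 4.26 and 3.25, and the second of them covered the principal start. Directly upstream, a purmorphamine peak of 2600 bp from 63566400 to 63568999 had 4.94, against 2.96 for the higher of 2 DMSO peaks under it. The GLI match at -7.16 kb lay in this purmorphamine peak and in no DMSO peak.

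The part of the upstream region nearest the upstream Ptch1 start, which was acetylated in WT limb buds, had no peak in either NIH3T3 list. In the gene body 7 of 9 purmorphamine peaks had no DMSO partner, against 36.5% over the whole list. Of these, 5 lay between -17.5 and -13.7 kb, in an intron without limb H3K27ac, and had log2 ratios of 2.32 to 3.55. The other 2 were 100 and 150 bp wide and lay within or beside the limb elements at -48 and -45 kb. Of the 10 overlapping pairs of the window the purmorphamine peak was higher by at least 1 log2 unit in 4, against 3.19% of all 55759 pairs. These 4 were the pair over the promoter (1.25), that directly upstream of it (1.98) and those at 146 kb (2.16) and 162 kb (1.12). The median difference was 0.55 in the window and -0.11 over all pairs.

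Upstream of Ptch1 purmorphamine-treated cells had 2 long runs of peaks that the DMSO list mostly lacked. In the 240 kb between Ptch1 and Ercc6l2 there were 54 purmorphamine peaks covering 31450 bp and 5 DMSO peaks covering 3300 bp. Of the 54, 49 had no DMSO partner, against 36.5% over the whole list. The best ranked of these was a peak of 2200 bp at 147 kb in an intron of the lincRNA 1700024I08Rik, with a log2 ratio of 4.56, which held the GLI match at 146 kb. The strongest DMSO peak there, at 175 kb over the pseudogene Gm47417, had a ratio of 4.31 against 4.43 with purmorphamine.

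The second run filled the interval between Ercc6l2 and Hsd17b3. It held 80 purmorphamine peaks covering 62800 bp and 0 DMSO peaks. Over the whole list 36.5% of purmorphamine peaks had no DMSO partner. The best ranked was a peak of 2550 bp from 64021200 to 64023749, 448 kb upstream, with a log2 ratio of 5.06 and rank 1282. A peak of 4150 bp at 355 kb had 4.62, the neighbouring peaks of 3250 and 2650 bp at 406 and 407 kb had 4.61 and 4.67, and one of 4650 bp at 345 kb had 4.34. At the limb element at 378 kb the 3 purmorphamine peaks were lower, with 3.08, 2.87 and 2.85. In the distal 100 kb the purmorphamine peaks covered 38.0% of the bases.

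**Figure D3:**
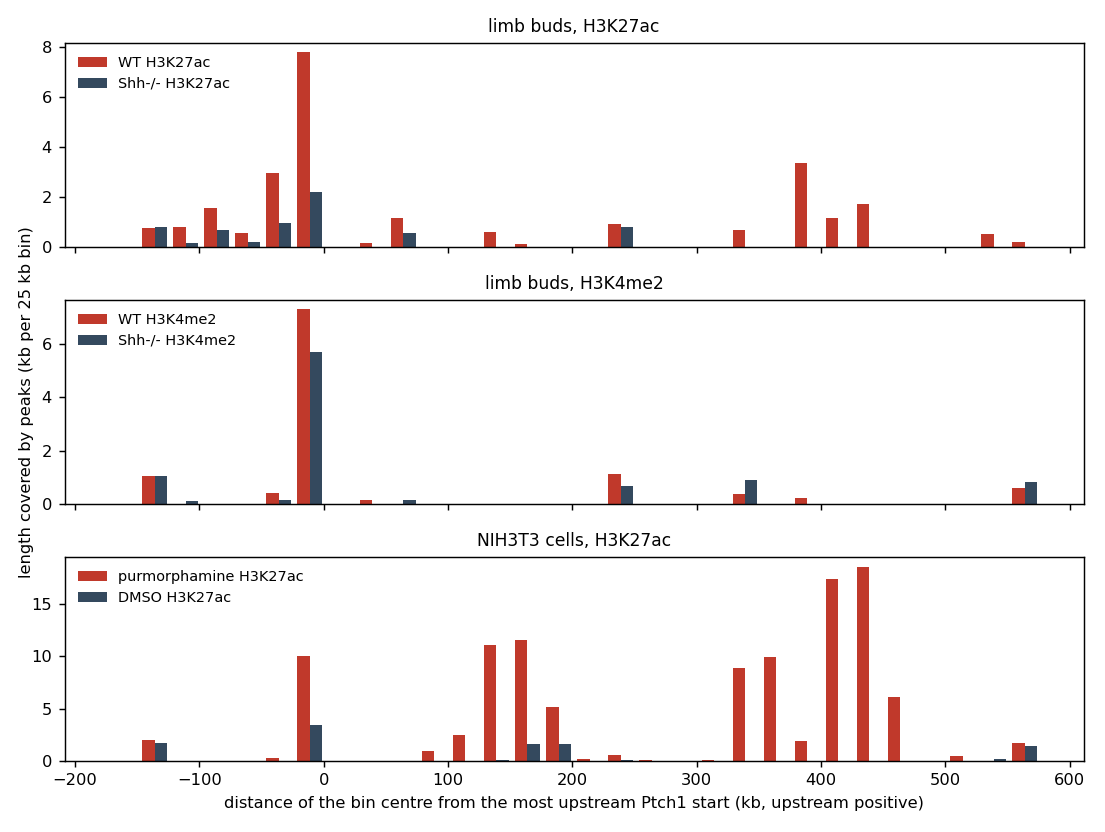
Length covered by peaks (kb per bin of 25 kb, vertical axis) against distance of the bin from the most upstream Ptch1 start, for limb H3K27ac, limb H3K4me2 and NIH3T3 H3K27ac. In the limb the highest H3K27ac bin of either genotype is at Ptch1, and the next highest WT bin (3350 bp) is 389 kb upstream. In NIH3T3 cells the highest purmorphamine bins are more than 400 kb upstream, where the DMSO list is at 0.

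Over the window 141 of 151 purmorphamine peaks (93.4%, Wilson 88.2 to 96.4) had no DMSO partner, against 36.5% over the whole list, and 3 of 15 DMSO peaks (20.0%, 7.05 to 45.2) had no purmorphamine partner, against 41.1%. In the distal 100 kb it was 46 of 46 purmorphamine peaks (92.3 to 100). The covered lengths of 109550 and 10100 bp differed 10.8-fold. Of 1984 stretches of the same length with at least 10 peaks in either list, 3.93% had at least 2-fold more with purmorphamine, 1 had a larger fold than the window, and the median was 0.87-fold. In the stretches of 750 kb just below and just above the window the fold was 1.70 and 0.55. Over Ptch1 and 20 kb on either side the lengths were 10300 and 3400 bp, a 3.03-fold difference, and 4.41% of 14793 measured genes had at least 2-fold more with purmorphamine, against 6.90% with DMSO.

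**Figure D4:**
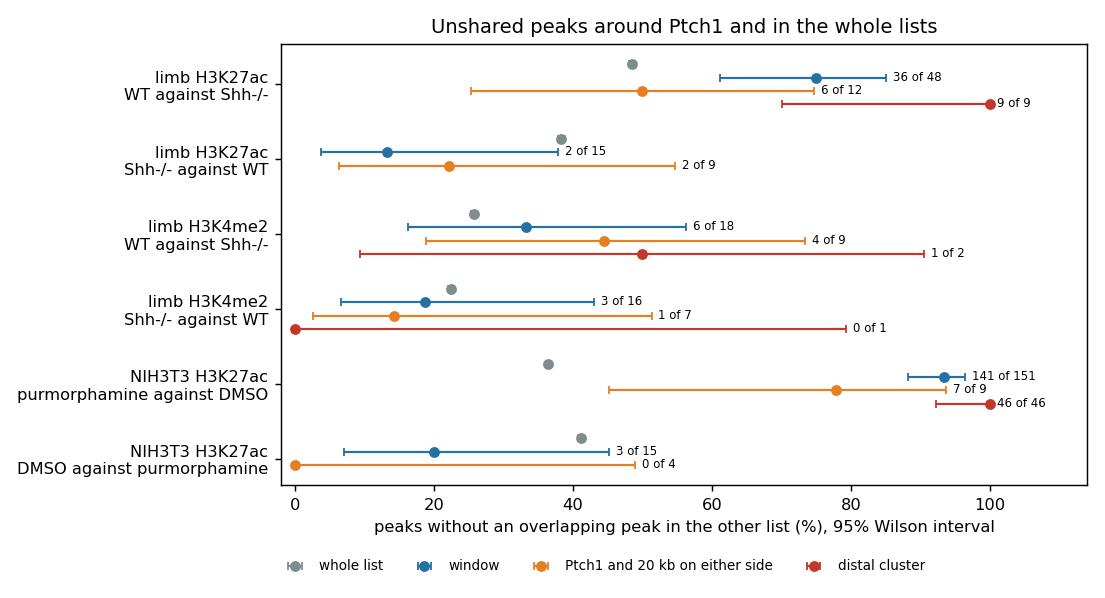
Share of peaks without an overlapping peak in the other list of the pair (horizontal axis, %), with 95% Wilson intervals, for whole lists, the window, Ptch1 with 20 kb on either side and the distal cluster. The purmorphamine share of the window (93.4%) and the WT H3K27ac share (75.0%) lie above those of their whole lists, 36.5% and 48.5%, and the H3K4me2 intervals hold the values of their whole lists.

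Limb and fibroblast elements were partly at the same places. Peaks of all lists within 1 kb of each other formed 59 elements in the window, of which 23 held a WT H3K27ac peak. Of these, 13 held no Shh-/- H3K27ac peak, 8 of the 13 held a purmorphamine peak and 6 of those no DMSO peak. Peak by peak, 14 of 36 WT-only peaks (38.9%) overlapped a purmorphamine-only peak, against 2.81% of all WT-only peaks. In the window 141 of 151 purmorphamine peaks were purmorphamine-only, against 36.5% of the whole list, which raises this share. A purmorphamine peak of either kind was overlapped by 19 of 36 WT-only peaks (52.8%), against 24.5% of all WT-only peaks. Purmorphamine peaks covered 14.6% of the window, and the share that this density alone would give was not tested. In the distal 100 kb 6 of 9 WT-only peaks overlapped a purmorphamine-only peak and within 20 kb of Ptch1 0 of 6 did, although 1 of these overlapped a purmorphamine peak that also had a DMSO partner.

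Single elements differed. The 3 limb peaks at 395 to 396 kb overlapped no purmorphamine peak, while 10 purmorphamine peaks between 63925100 and 63936399 met no limb peak of any mark. The limb peaks at 345, 378, 411, 430 and 448 kb had purmorphamine peaks in the same element. No element held a Shh-/- H3K27ac peak without a WT one.

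Exact matches to GACCACCCA, counted on both strands, were found at 16 places in the window, 10 of them in a peak of some list. Of these, 6 lay in purmorphamine peaks, which was 6 of 151 peaks (3.97%) against 0.725% of all purmorphamine peaks. The 6 peaks were 650 to 4350 bp wide against a median of 350 bp in the window, and per 100 kb covered there were 5.48 matches in the window against 1.14 in the whole list. Of all 16 matches, 10 lay outside purmorphamine peaks, which covered 14.6% of the window. Whether the window as a whole is rich in matches was not tested, so this contrast is not particular to the peaks. Matches lay in H3K4me2 peaks of both genotypes, at -7.16 and 328 kb, in H3K27me3 peaks at -4.31 and -0.133 kb, and in a single WT H3K27ac peak at 534 kb in an intron of Slc35d2. No match lay in a Shh-/- H3K27ac peak or in a DMSO peak of the window. In the whole lists 0.401% of WT H3K27ac, 0.266% of Shh-/- H3K27ac and 0.592% of DMSO peaks held a match.

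Near the promoter the 3 exact matches at -7.16, -4.31 and -0.133 kb lay beside rather than inside WT H3K27ac peaks. That at -7.16 kb was in the gap between the 2 promoter-proximal WT peaks, 57 bp from the nearer one, and that at -0.133 kb was in the gap between the 2 peaks over the upstream start, 27 bp from the nearer one. Those at 146 and 430 kb lay 138 and 62 bp from a WT peak. Altogether 4 of 16 matches of the window lay outside a WT H3K27ac peak but within 150 bp of one (25%), against 0.653% of 18532 matches in the genome. Inside a WT peak lay 1 of the 16 and 206 of the 18532. The distance was chosen after these values were seen, so the contrast is a description only. WT H3K27ac peaks covered 3.31% of the window, and a difference in peak density from the genome was not taken into account. The strongest distal element held a single match with 1 mismatch, printed above, and no exact one, although the study lists a GLI3-bound region over it.

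Of the other protein-coding genes of the window, 3 had H3K27ac at a start in WT limb buds. At the start of Fancc, which lies within 20 kb of the end of Ptch1, a WT H3K27ac peak of 1550 bp with a log2 ratio of 4.74 met a Shh-/- peak of 650 bp with 3.96. An internal Fancc start at -142 kb had 5.83 and 4.78, and 4.64 and 4.33 in purmorphamine and DMSO cells. At the start of Ercc6l2 the WT and Shh-/- ratios were 4.57 and 3.95, and in NIH3T3 cells a purmorphamine peak of 550 bp (3.16) had no DMSO partner. Slc35d2 had a narrow WT-only peak at its start (200 bp, 3.09) and ratios of 4.37 and 3.86 with purmorphamine and DMSO. Hsd17b3 had no peak over its body in any list. The stretch of Zfp367, a zinc finger gene, that lies in the window held a single DMSO peak of 100 bp in an intron.

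Among 16 Hedgehog pathway genes, Ptch1 had the largest absolute difference in limb H3K27ac. With at least 500 bp covered in either limb list, 13 of them were measured. Of the 13, 2 had at least 2-fold more covered length in WT, a share near the 15.1% of all genes. These were Ptch1 (12850 against 4000 bp) and the signal-induced transcription factor Gli1 (2800 against 200 bp). The fold was larger for Gli1 (14) than for Ptch1 (3.21). None of the 13 had 2-fold more in Shh-/- limb buds. The median log2 fold of the 13 was 0.33, against 0.29 over all measured genes. Ligands and their handling genes, the transducer Smo (3200 against 1950 bp), the co-receptors Cdon, Boc and Gas1, the antagonist Hhip, the regulator Sufu and the factors Gli2 and Gli3 stayed under 2-fold, and Shh, Ihh and Kif7 were not measured. For H3K4me2 0 of 16 passed 2-fold in either direction.

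With purmorphamine 4 of 13 measured pathway genes had at least 2-fold more covered length than with DMSO, against 4.41% of all genes. They were Ptch1, Gli1 (9200 against 1550 bp), Gli2 (32500 against 11850 bp) and Kif7, a kinesin that acts on GLI proteins (900 against 200 bp). Disp1, which releases ligand from the cell, had less (10650 against 28950 bp). The median log2 fold was 0.49, against -0.08 over all measured genes. Ptch1 and Gli1 were past 2-fold in both limb and fibroblasts. With 100 kb on either side in place of 20 kb Gli1 was under 2-fold in both, and Ptch1 was the only 1 of the 4 genes that kept its call with purmorphamine. In Shh-/- limb buds 6 of the 16 genes had at least 500 bp of H3K27me3 (against 19.1% of all genes), and 9 had none. The 6 were Shh (10900 bp), Ptch1 (6800 bp), Ihh (6500 bp), Dhh (6300 bp), Gli1 (5000 bp) and Hhip (500 bp, at the limit). Ptch1 and these pathway genes were proposed with results of these data known, so the counts are a description.

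**Figure D5:**
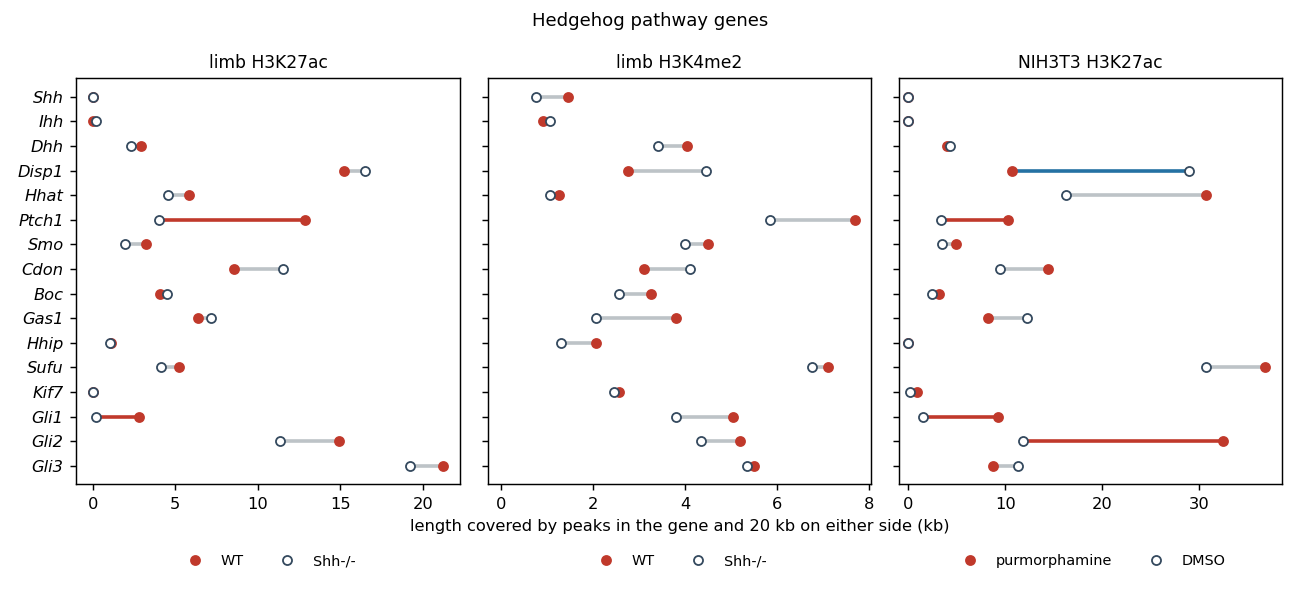
Length covered by peaks (kb, horizontal axis) in 16 Hedgehog pathway genes with 20 kb on either side, as filled points for WT or purmorphamine and open points for Shh-/- or DMSO. Red lines mark genes with at least 2-fold more in the first list and the blue line 2-fold less; Ptch1 has 12850 against 4000 bp in limb H3K27ac, 7700 against 5850 bp in limb H3K4me2 and 10300 against 3400 bp in NIH3T3 cells.

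Genes with a similar combination of marks were looked for. By Euclidean distance over log2(percent of the gene and 20 kb on either side covered + 0.1) in the 7 lists, the nearest of 21905 protein-coding genes outside the window were Arid3a, which encodes a DNA-binding factor, at 1.70, Fignl2 at 1.73, 2200002D01Rik at 1.76, Msrb1, a methionine sulfoxide reductase gene, at 1.80, and Gnas, the gene of a stimulatory G protein subunit, at 1.80. All 5 had peaks in every list, as Ptch1 had, which follows from choosing them by these same lists. H3K27ac covered 12.2% of Ptch1 in WT and 3.80% in Shh-/- limb buds, while it covered 8.02% and 4.56% of Arid3a, 10.6% and 9.75% of Fignl2, 5.37% and 3.94% of 2200002D01Rik, 7.26% and 3.25% of Msrb1 and 5.81% and 5.66% of Gnas. With purmorphamine and DMSO the coverage was 9.78% and 3.23% for Ptch1, 13.02% and 8.75% for Arid3a, 6.14% and 2.34% for Fignl2, 6.20% and 4.65% for 2200002D01Rik, 11.5% and 9.32% for Msrb1 and 4.74% and 5.42% for Gnas. Msrb1 thus had over 2-fold more in WT limb buds and Fignl2 over 2-fold more with purmorphamine, as Ptch1 had in both.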

How the data were processed

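Each list stands for 2 replicate libraries of one group, immunoprecipitated for 1 mark, with groups taken from the sample labels. The authors aligned reads to mm10 and called peaks with CisGenome against input, and how replicates entered the calling is not given in the sources used here. The submitters' processing notes name Bowtie2 2.2.5 and limma. The authors deposited for each peak an FDR (a q-value), a score (the largest ChIP statistic, which sets the rank), the highest log2 ratio of ChIP to input, and −log10 of the smallest Poisson p-value, which entered no comparison. Only the 19 autosomes and both sex chromosomes were analysed, and ranks are those of the whole list. The study's methods state only a minimum depth for all libraries and the lists give no reads, so precision was given as 95% Wilson intervals on peak counts.

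Peaks of 2 lists were shared with at least 1 bp in common. Gene length covered included 20 kb on either side and was called past 2-fold where either list covered 500 bp. Named items were Ptch1, protein-coding genes of the window, elements (peaks merged within 1 kb) at Ptch1 and in the distal cluster with the 3 best ranked others per list, 16 pathway genes, and the 5 most similar genes. A further pathway gene is not reported here. Annotation was GENCODE vM21. Members and lists were chosen with earlier results of these data known. Segments between genes, stretches of 750 kb, log2 differences between overlapping peaks, overlaps between limb and fibroblast lists and the 150 bp limit were added after the data were examined. Alternatives were an overlap of 50%, a gap of 500 bp, the better-ranked 50% of peaks, FDR under 0.05, lists of equal size, merged peaks, 1 motif mismatch, and gene flanks of 100 or 2 kb or a fold of 1.5. Overlap code was checked on simulated peaks and against bedtools 2.31.1. Python 3.11.15, pandas 2.3.3 and numpy 2.4.6 were used.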

Additional observations from a re-analysis of the deposited data

How the results depend on the processing

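Of 161 alternative values, 143 stayed within the interval of the main share or within 1.5 times the main count, length or fold. For the distal WT H3K27ac and purmorphamine peaks the alternatives, among them the whole interval between Ercc6l2 and Hsd17b3 (added after the data were examined), show nothing about stability, since the Shh-/- and DMSO lists have no peak there to be a partner. With at least 50% of a peak covered, the share without a partner moved to 85.4% for WT H3K27ac in the window and 83.3% at Ptch1, and to 100% for the single distal Shh-/- H3K4me2 peak. With a gap of up to 500 bp it moved to 11.1% for WT and 0% for Shh-/- H3K4me2 at Ptch1. With the better-ranked 50% it moved to 44.4% for Shh-/- H3K4me2 and 0% for DMSO in the window, distal WT H3K4me2 covered 0 bp, and 3 WT H3K27ac peaks in place of 5 overlapped H3K27me3. With peaks merged within 1 kb the purmorphamine share of the window was 86.4%. With 1 mismatch 53 peaks of the window held the motif, 29 of them with purmorphamine. For pathway genes, 100 kb flanks left 1 gene with more purmorphamine acetylation (Ptch1), gave 2 with less (Disp1 and Shh) and 1 with more WT H3K4me2 (Gas1). Flanks of 2 kb gave 1 with more WT H3K4me2 (Gli1), and a fold of 1.5 gave 3 (Gas1, Hhip and Shh) and 1 with more in Shh-/- limb buds (Disp1). In WT H3K27ac, 100 kb flanks left Ptch1 and added Kif7 while Gli1 was under 2-fold. The cause of these shifts was not tested beyond the setting itself. For 4 results no value was formed, as no peak remained in the distal cluster.

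No paired analysis was possible because each list gives 1 value for both replicates of its group, and for the same reason no replicate was left out. The lists give no read depth, so a missing peak cannot be told from a weak one.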
